A study of Arabidopsis thaliana with 12 samples.

Results

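The 10 genes described here belong to the miRNA pathway of Arabidopsis thaliana and were followed across embryos of different ploidy and paternal genotype. They were chosen by name, as the core genes that make and load miRNAs together with SPL10 and SPL11, and their 10 entries were taken from a table of 33602 genes. The genes were DCL1 (AT1G01040), HYL1 (AT1G09700), SE (AT2G27100), HEN1 (AT4G20910), HST (AT3G05040), AGO1 (AT1G48410), AGO7 (AT1G69440), AGO10 (AT5G43810), SPL10 (AT1G27370) and SPL11 (AT1G27360). All 10 passed the filter on low values, a level of 1 RPKM or more in 3 or more of the libraries compared. RPKM counts reads per kilobase of transcript and corrects for sequencing depth, so that levels can be set side by side between genes of different length.

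MiRNAs are cut from folded primary transcripts in the nucleus. The Dicer enzyme DCL1 makes the cuts, the double-stranded RNA binding protein HYL1 and the zinc finger protein SE help it to cut at the right place, HEN1 methylates the ends of the small RNA and HST acts in its export. An ARGONAUTE protein then binds the mature miRNA, AGO1 for most miRNAs, AGO7 for miR390 and AGO10 for miR165 and miR166. AGO1 carries the miRNAs that it binds to complementary transcripts. DCL1 and AGO1 are themselves targets, of miR162 and miR168. In early embryos miR156 holds back SPL10 and SPL11, transcription factors whose excess brings forward genes of the maturation phase.

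Isolated torpedo-stage embryos were taken from crosses in which the seed parent was always a diploid wild-type plant, so that ploidy and genotype differed through the pollen alone. The wild type of all crosses was the accession Col-0. The 2x wt group had diploid wild-type pollen donors and the 2x nrpd1 group diploid nrpd1 donors, both at 6 days after pollination (DAP). The 3x wt group had tetraploid wild-type donors and gave triploid embryos at 8 DAP, and the 3x nrpd1 group had tetraploid nrpd1 donors and carries 8 DAP in the labels, although the sources used here do not all give that age. Each group had 3 libraries, each made from about 150 embryos dissected from crosses on distinct plants. NRPD1 encodes the largest subunit of RNA polymerase IV, which makes precursors of small interfering RNAs, and embryos of both nrpd1 groups still had a wild-type maternal copy. In 3x wt against 2x wt, ploidy and age cannot be told apart. By the labels the same holds for 3x nrpd1 against 2x nrpd1 and for the changes set against each other in the interaction.

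The total that the RPKM values were divided by ran from 6851605 to 13602764 reads a library, as worked out from the smallest step between values. It is a normalising total, below the number of mapped reads that the study lists, and read numbers given here for single genes are approximate and rest on it. They also rest on annotated exon lengths, which for some miRNA genes were not the lengths behind the deposited values. NRPD1 itself, listed as NRPD1A, stood at 2.42 to 2.69 RPKM in 2x wt, 2.82 to 4.48 in 2x nrpd1, 1.46 to 2.17 in 3x wt and 1.78 to 3.61 in 3x nrpd1, so its level did not mark out the nrpd1 crosses as lower. All 10 embryo markers examined, LEC1 and FUS3 among them, had a mean above 1 RPKM in each group. The summed level of 7 endosperm markers was 54.7 to 66.4 RPKM in 2x wt, 53.9 to 64.7 in 2x nrpd1, 85.6 to 93.9 in 3x wt and 22.1 to 74.9 in 3x nrpd1, and most of it was SUC5. The other endosperm markers were low, with 2, 1, 2 and 3 of the 7 at a mean above 1 RPKM in these groups. Of 7 seed coat markers the sum was 153.5 to 165.2, 166.4 to 187.6, 269 to 333 and 111 to 182 RPKM, most of it from SBT1.7. Of the single seed coat markers, BAN was at 3.70 to 5.84 RPKM in 3x wt against 0.260 to 0.647 in 2x wt, TT10 at 3.82 to 8.10 against 0.230 to 0.719, and TT16 at or near 0 in every library. The endosperm marker PHE1 was at 0 in all 6 diploid libraries and at 0.994 to 3.70 RPKM in the 6 triploid ones. Both sums were highest in 3x wt, and their part in the differences between groups was not tested. In bulk embryos, fewer cells of a type and less RNA per cell cannot be told apart.

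One library stood apart. In 3x nrpd1 replicate 3 the ratio to the mean of the other libraries of its group went with the exon length of the gene, with a median log2 ratio of 0.47 over 2010 genes of 500 to 1000 bp and −1.74 over 223 genes of 5000 to 8000 bp. Its RPKM values summed to 866778, against 711651 to 751239 in the other 11 libraries. Members of the miRNA pathway are long, so results on 3x nrpd1 are given with and without this library.

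The sequences below tie the members to the miRNAs that bind them, and they show how alike the sites of SPL10 and SPL11 are. Mature miRNAs are written 5′ to 3′ with the seed, bases 2 to 8, in capitals, from the RefSeq annotation of TAIR10.1. The copies encoded by MIR156A and MIR156C are the same, as are those of MIR166A and MIR166B and those of MIR398B and MIR398C, and miR165a shares the miR166 seed.
miR156a-5p: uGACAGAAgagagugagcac
miR162a-3p: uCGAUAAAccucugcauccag
miR168a-5p: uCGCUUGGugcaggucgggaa
miR165a-3p: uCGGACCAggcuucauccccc
miR166a-3p: uCGGACCAggcuucauucccc
miR398c-3p: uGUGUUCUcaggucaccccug
miR838: uUUUCUUCuacuucuugcaca

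In the transcripts, the best match to miR156 without gaps lay in the coding part of exon 5 of 5 in both SPL10 (chr1:9505541-9505560, minus strand) and SPL11 (chr1:9503618-9503637, plus strand). The match to miR168 in AGO1 lay in the coding part of exon 2 of 23 (chr1:17891529-17891549, minus strand). Capitals mark the bases that do not pair with the miRNA, G to U counted as unpaired.
SPL10 site: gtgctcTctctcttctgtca
SPL11 site: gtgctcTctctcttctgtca
AGO1 site: ttcccgaGctgcaTcaagcTa

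SPL10 and SPL11 had the same 20 bases at the site, with 1 mismatch to miR156. Of 31342 genes searched in the same way, 8 (0.0255%) held a window with at most 1 mismatch to miR156, and all 8 were SPL genes. AGO1, with 3 mismatches, was the only gene of 31342 with a window that close to miR168. For DCL1 and miR162 the best window without gaps had 5 mismatches and crossed the junction of exons 12 and 13, and 132 genes (0.421%) had a window as close. SPL10 and SPL11 are neighbours on chromosome 1, with their 3′ ends facing each other 1088 bases apart.

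The levels of the members in 2x wt embryos spanned nearly the whole range of expressed genes. AGO1 was the most abundant at 98.9 ± 4.79 RPKM (SD, n = 3), above 93.1% of the genes that reached 1 RPKM in 2x wt, and SE (64.4 ± 2.09 RPKM) and AGO10 (49.5 ± 0.951 RPKM) followed. HYL1 at 24.3 ± 2.34 RPKM, HEN1 at 15.3 ± 0.542 RPKM, AGO7 at 12.4 ± 0.561 RPKM and HST at 12.4 ± 0.935 RPKM formed the middle. DCL1 had only 5.20 ± 0.524 RPKM, above 23.7% of expressed genes. SPL10 at 1.53 ± 0.275 RPKM and SPL11 at 1.29 ± 0.382 RPKM were close to the filter, above 4.69% and 2.74% of expressed genes. Neighbours in this order did not overlap between their libraries except for AGO7 and HST, and for SPL10 and SPL11. In 3x wt the order changed, since HYL1 (11.6 to 14.8 RPKM) came down to the range of HST (12.6 to 13.8 RPKM), SE (43.2 to 51.0 RPKM) to that of AGO10 (44.1 to 50.6 RPKM) and HEN1 (7.11 to 9.15 RPKM) to that of AGO7 (7.06 to 11.9 RPKM).

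**Figure D1:**
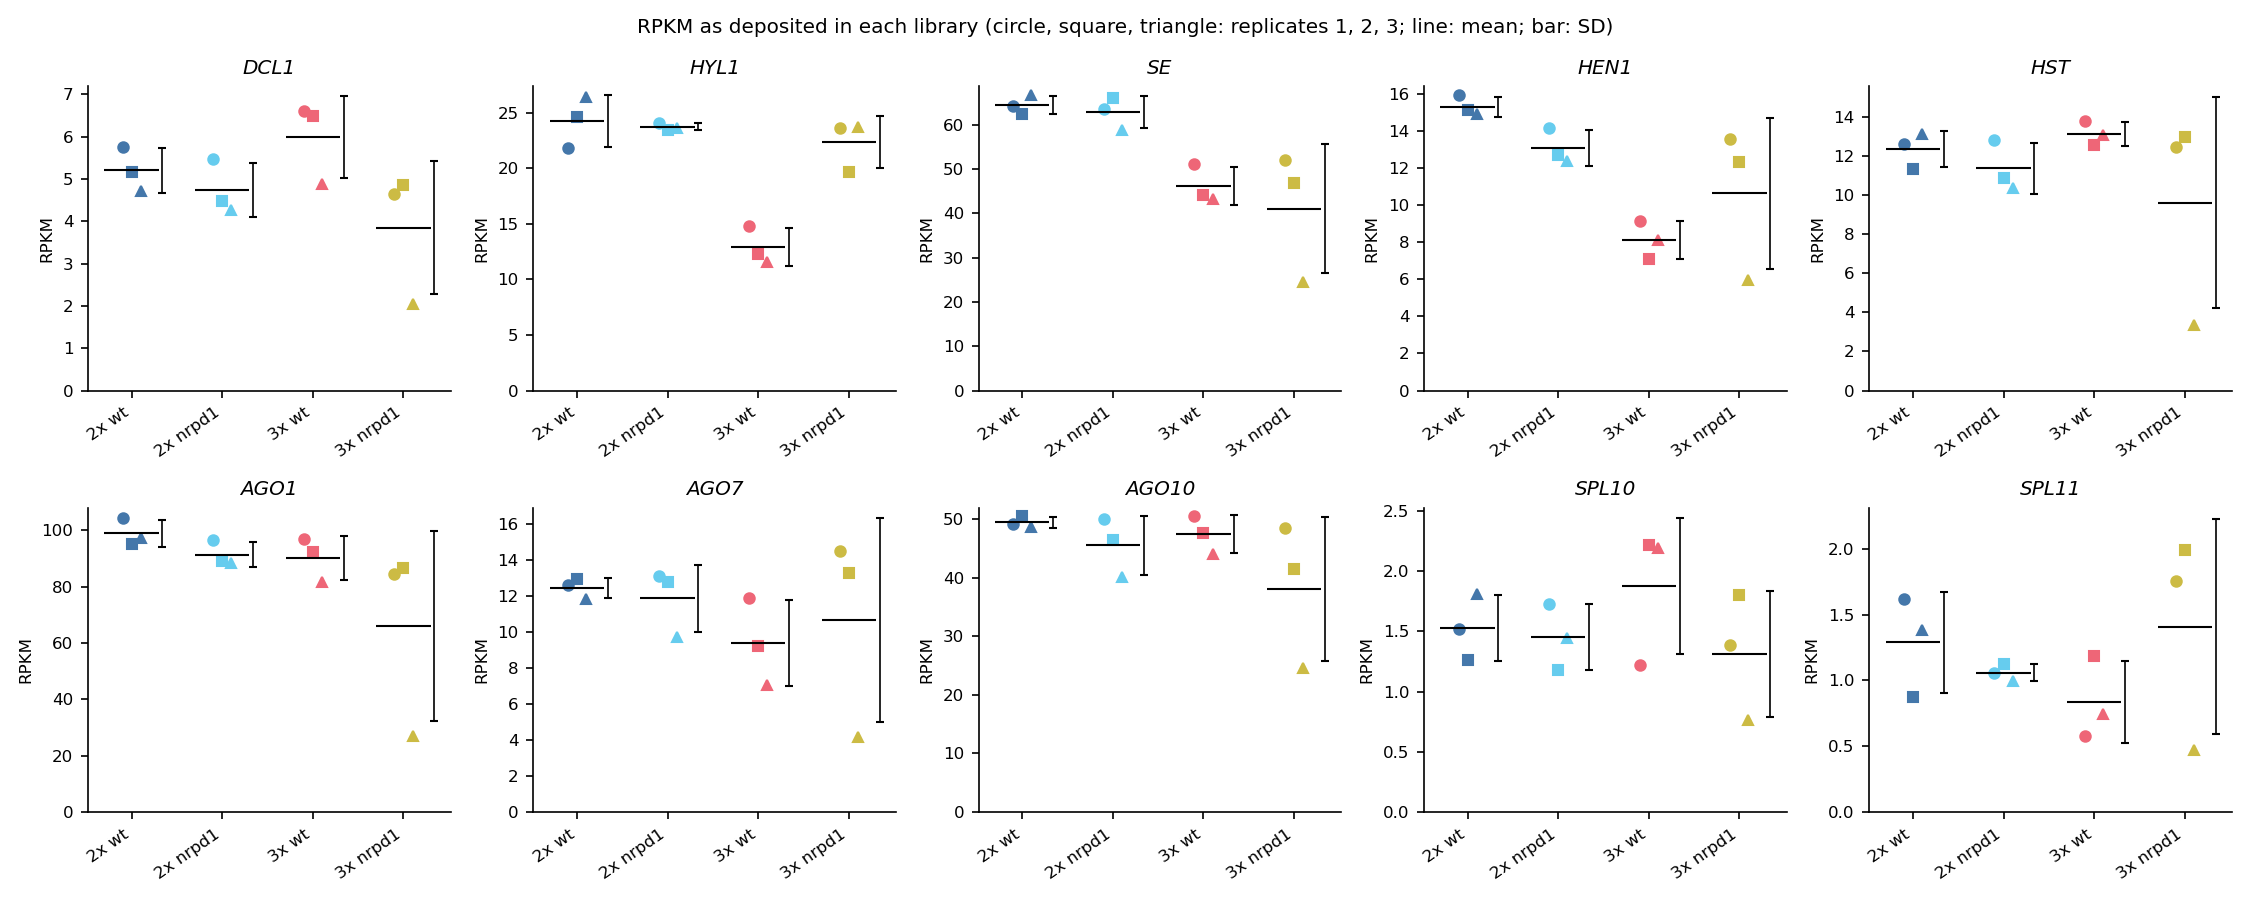
RPKM of the 10 genes in each library (y axis, linear, from 0) by group (x axis), with circles, squares and triangles for replicates 1, 2 and 3, a line for the mean and a bar for the SD (n = 3). HYL1, SE and HEN1 are lower in each 3x wt library than in each 2x wt library, and the triangle of 3x nrpd1 is the lowest of its group for 9 genes, HYL1 being the exception.

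Of the 10 members 3 fell in 3x wt against 2x wt embryos, HYL1, SE and HEN1, and none rose. Here and below, a gene is said to have risen or fallen where the limma test on log2(RPKM + 0.5) gave a Benjamini-Hochberg adjusted p under 0.05 over all genes tested, and is called up-regulated or down-regulated where log2(fold change) was also beyond 1 or −1. Fold changes on this scale understate those of low genes. In this comparison 4413 of 17965 genes (24.6%) fell and 4805 (26.7%) rose, so that 3 of 10 lower is close to the background. No member was up-regulated or down-regulated, against 1988 genes (11.1%) and 872 genes (4.85%) over the table. The libraries of HYL1, SE and HEN1 did not overlap between the groups, which was also true of 39.6% of all genes in that direction, on the values as deposited. The median log2(fold change) of the members was −0.12, that of all genes −0.01. With the values as deposited the median of all genes was −0.16, so that changes smaller than this depend on the scaling.

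HYL1, the partner of DCL1, had 21.8, 24.7 and 26.5 RPKM in 2x wt, 24.1, 23.5 and 23.7 in 2x nrpd1, 14.8, 12.3 and 11.6 in 3x wt, beside 23.7, 19.7 and 23.7 in 3x nrpd1. The 3 libraries of 3x wt were below each of the other 9, which lay together. The mean in 3x wt was 46.9% below that in 2x wt, with a log2(fold change) of −0.73 (SE 0.11, 95% interval −0.98 to −0.48, limma adjusted p = 0.000626). In 3x nrpd1 it was 1.73 times that in 3x wt, and HYL1 rose, with a log2(fold change) of 0.79 (SE 0.20, 95% interval 0.32 to 1.26, limma adjusted p = 0.0372) with all libraries and of 0.62 (limma adjusted p = 0.0132) without 3x nrpd1 replicate 3. The call was lost with the replicate number as a block (0.79, limma adjusted p = 0.0574), and without any single library among 3x wt replicate 1 (0.86, adjusted p = 0.0829), replicate 2 (0.77, adjusted p = 0.164) and replicate 3 (0.73, adjusted p = 0.172), and without 3x nrpd1 replicate 1 (0.82, adjusted p = 0.0829, all limma). Over all fits with a single library of either group left out, the difference in HYL1 stayed between 0.62 and 0.95. HYL1 (chr1:3137649-3140353, minus strand) overlaps AT1G09690 on its own strand, a far more abundant transcript with means of 1673 to 1821 RPKM in the 4 groups, and reads from the stretch that they share cannot be assigned from a table of sums. With all libraries AT1G09690 did not pass the test in either comparison, with log2(fold change) of 0.20 (limma adjusted p = 0.161) in 3x wt against 2x wt and 0.08 (limma adjusted p = 0.900) in 3x nrpd1 against 3x wt, but without 3x nrpd1 replicate 3 it fell in the latter by 0.24 (limma adjusted p = 0.0337), the opposite direction to HYL1.

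SE, also called SERRATE, had 64.3, 62.4 and 66.6 RPKM in 2x wt, 63.5, 66.1 and 58.9 in 2x nrpd1, 51.0, 44.0 and 43.2 in 3x wt, beside 51.9, 46.9 and 24.4 in 3x nrpd1. Here all 6 triploid libraries, with either pollen donor, were below all 6 diploid ones. In 3x wt the mean was 28.5% below that in 2x wt, with a log2(fold change) of −0.32 (SE 0.08, 95% interval −0.50 to −0.14, limma adjusted p = 0.00828). With a spread shared over all 12 libraries the same difference missed the threshold (−0.31, limma adjusted p = 0.156). For 3x nrpd1 against 3x wt the log2(fold change) was −0.22 (limma adjusted p = 0.489), and −0.01 (limma adjusted p = 0.946) without 3x nrpd1 replicate 3, the library in which SE was lowest.

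DCL1 had 5.75, 5.16 and 4.71 RPKM in 2x wt, 5.46, 4.48 and 4.27 in 2x nrpd1, 6.61, 6.48 and 4.88 in 3x wt, beside 4.64, 4.86 and 2.05 in 3x nrpd1. Replicates 1 and 2 of 3x wt were the highest of the 12 and replicate 3 lay among the diploid ones. Its log2(fold change) in 3x wt against 2x wt was 0.33 (SE 0.16, 95% interval −0.04 to 0.70, limma adjusted p = 0.1198), and it passed the test only without 3x wt replicate 3 (0.46, limma adjusted p = 0.0499). The 3x nrpd1 libraries were all below those of 3x wt, by 35.7% in the mean, with a log2(fold change) of −0.63 (SE 0.26, 95% interval −1.23 to −0.04, limma adjusted p = 0.139) that did not pass, and of −0.40 (limma adjusted p = 0.146) without 3x nrpd1 replicate 3. The enzyme that cuts and the protein that guides it thus had opposite signs in both comparisons, with only HYL1 past the test.

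HEN1, the methyltransferase, had 15.9, 15.1 and 14.9 RPKM in 2x wt, 14.2, 12.7 and 12.4 in 2x nrpd1, 9.15, 7.11 and 8.10 in 3x wt, beside 13.6, 12.4 and 5.97 in 3x nrpd1. The 3x wt libraries were below all diploid ones, and in 3x nrpd1 replicates 1 and 2 were back near the diploid range and replicate 3 was the lowest of all 12. In 3x wt the mean was 47.0% below 2x wt, with a log2(fold change) of −0.73 (SE 0.12, 95% interval −0.99 to −0.46, limma adjusted p = 0.000826). Against 3x wt, 3x nrpd1 had a log2(fold change) of 0.31 (SE 0.23, 95% interval −0.22 to 0.84, limma adjusted p = 0.389). Without 3x nrpd1 replicate 3 the difference was 0.54 and passed (limma adjusted p = 0.0259), so that whether HEN1 rose in 3x nrpd1 rests on that library.

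HST, the HASTY export factor, had 12.6, 11.3 and 13.1 RPKM in 2x wt, 12.8, 10.9 and 10.4 in 2x nrpd1, 13.8, 12.6 and 13.1 in 3x wt, beside 12.5, 12.97 and 3.37 in 3x nrpd1. Apart from the last library, at 26.5% of the mean of its 2 partners, all values lay within a narrow band and, as deposited, the groups overlapped. After scaling, HST was higher in each 3x wt library than in any of 2x wt, as were 30.8% of all genes. It was then lower in each 3x nrpd1 library than in any of 3x wt, as were 21.5% of all genes. The log2(fold change) was 0.25 (limma adjusted p = 0.0668, 95% interval 0.02 to 0.47) in 3x wt against 2x wt and −0.63 (limma adjusted p = 0.274) in 3x nrpd1 against 3x wt, the latter −0.15 (limma adjusted p = 0.367) without 3x nrpd1 replicate 3.

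The ARGONAUTE members, which load the finished miRNA, did not pass the test in any comparison. AGO1 had 104, 95.0 and 97.5 RPKM in 2x wt, 96.5, 89.0 and 88.5 in 2x nrpd1, 96.9, 92.2 and 81.6 in 3x wt, beside 84.4, 86.6 and 27.0 in 3x nrpd1. The 3x wt libraries overlapped those of both diploid groups, and 3x nrpd1 replicate 3 was at 31.6% of the mean of its partners. In 3x wt against 2x wt the log2(fold change) of AGO1 was 0.03 (limma adjusted p = 0.797, SE 0.09), and its 95% interval of −0.16 to 0.22 leaves room only for small changes on this scale. Between 3x nrpd1 and 3x wt it was −0.61 (SE 0.33, 95% interval −1.36 to 0.15, limma adjusted p = 0.243) and, without replicate 3, −0.19 (limma adjusted p = 0.156).

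AGO10, also called ZWILLE or PINHEAD and known for its part in the embryonic shoot meristem, had 49.2, 50.6 and 48.7 RPKM in 2x wt, 50.1, 46.5 and 40.2 in 2x nrpd1, 50.6, 47.7 and 44.1 in 3x wt, beside 48.4, 41.5 and 24.5 in 3x nrpd1. As deposited the groups overlapped in each comparison, and 3x nrpd1 replicate 3 was the lowest library. After scaling, AGO10 was lower in each 3x nrpd1 library than in any of 3x wt, as were 21.5% of all genes. Its log2(fold change) was 0.10 (limma adjusted p = 0.337, 95% interval −0.09 to 0.29) in 3x wt against 2x wt and −0.35 (limma adjusted p = 0.230) in 3x nrpd1 against 3x wt, or −0.19 (limma adjusted p = 0.205) without replicate 3. AGO7, also called ZIPPY, had 12.6, 12.9 and 11.8 RPKM in 2x wt, 13.1, 12.8 and 9.71 in 2x nrpd1, 11.9, 9.21 and 7.06 in 3x wt, beside 14.5, 13.3 and 4.14 in 3x nrpd1. The 3x wt libraries spread widely and just reached the diploid range at their upper end. For AGO7 the log2(fold change) was −0.26 (limma adjusted p = 0.213, SE 0.16) in 3x wt against 2x wt, and −0.41 (limma adjusted p = 0.0478) without 3x wt replicate 1. Between 3x nrpd1 and 3x wt it was 0.04 (limma adjusted p = 0.956), and 0.46 (limma adjusted p = 0.109) without replicate 3.

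SPL10 and SPL11, which carry the same miR156 site, were low throughout. SPL10 had 1.52, 1.26 and 1.81 RPKM in 2x wt, 1.73, 1.18 and 1.44 in 2x nrpd1, 1.22, 2.21 and 2.19 in 3x wt, beside 1.38, 1.80 and 0.760 in 3x nrpd1. SPL11 had 1.62, 0.8704 and 1.38 RPKM in 2x wt, 1.06, 1.13 and 1.00 in 2x nrpd1, 0.579, 1.18 and 0.745 in 3x wt, beside 1.76, 1.99 and 0.473 in 3x nrpd1. For both genes the groups overlapped in each comparison. In 3x wt against 2x wt the log2(fold change) was 0.34 for SPL10 (95% interval −0.25 to 0.93, limma adjusted p = 0.310) and −0.31 for SPL11 (95% interval −0.98 to 0.36, limma adjusted p = 0.407). The comparison of 3x nrpd1 with 3x wt gave SPL10 −0.40 (limma adjusted p = 0.412) and gave SPL11 0.41 (95% interval −0.48 to 1.30, limma adjusted p = 0.495), and without 3x nrpd1 replicate 3 they had −0.25 (limma adjusted p = 0.605) and 0.77 (limma adjusted p = 0.126). The intervals are wide at these levels, so that changes of up to about 1 on the log2 scale were not detectable for SPL11.

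Against the table as a whole, the comparison of 3x nrpd1 with 3x wt touched few members. HYL1 was the only 1 of 10 that rose, where 1060 of 17913 genes (5.92%) rose and 1515 (8.46%) fell, and none was up-regulated or down-regulated, against 3.18% and 6.5% of all genes. Without 3x nrpd1 replicate 3, HYL1 and HEN1 rose and none fell, where 13.5% of 17651 genes rose and 16.5% fell. The members' median log2(fold change) was −0.28 with that library and −0.08 without it, against −0.01 and −0.00 for all genes. As deposited, the 3x nrpd1 libraries lay all above those of 3x wt for HYL1 and all below for DCL1, where 19.6% and 20.1% of all genes did so. This comparison shares the 3x wt libraries with the one before it.

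**Figure D2:**
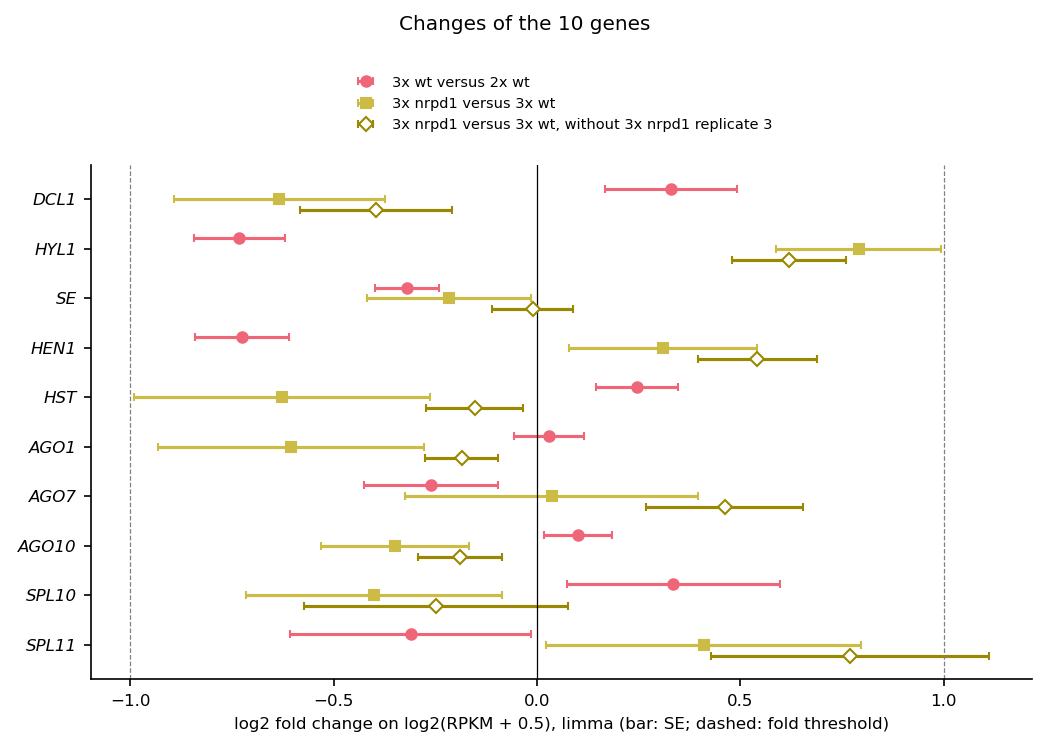
log2(fold change) of each gene (x axis) with its SE as a bar, in 3x wt against 2x wt, in 3x nrpd1 against 3x wt and in the latter without 3x nrpd1 replicate 3. HYL1 (−0.73) and HEN1 (−0.73) lie to the left in the first comparison and HYL1 to the right in the others (0.79 and 0.62), while AGO1, HST and DCL1 move towards 0 once replicate 3 is left out.

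The members were set against the exon-length trend of 3x nrpd1 replicate 3. HYL1, the shortest at 1806 bp, was at 109% of the mean of replicates 1 and 2. The other 9, from 2654 bp (SE) to 6279 bp (DCL1), were at 25.2% (SPL11) to 54.5% (AGO10). Over all genes the median log2 ratio was −0.29 for 1500 to 2000 bp, −0.84 for 2500 to 3000 bp, −1.06 for 3000 to 3500 bp and −1.40 for 4000 to 5000 bp. On the same scale the members had 0.13 (HYL1), −1.02 (SE), −1.12 (HEN1), −1.22 (DCL1), −1.66 (AGO1) and −1.91 (HST). SE, HEN1 and SPL10 (−1.07) lay within the quartiles of genes of their length. HYL1, AGO10 (−0.88) and DCL1 lay above them, and AGO1, AGO7 (−1.75), HST and SPL11 (−1.99) below. The part of transcript length in the 3x nrpd1 values of single genes was not tested further than by leaving the library out and by removing the length trend.

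**Figure D3:**
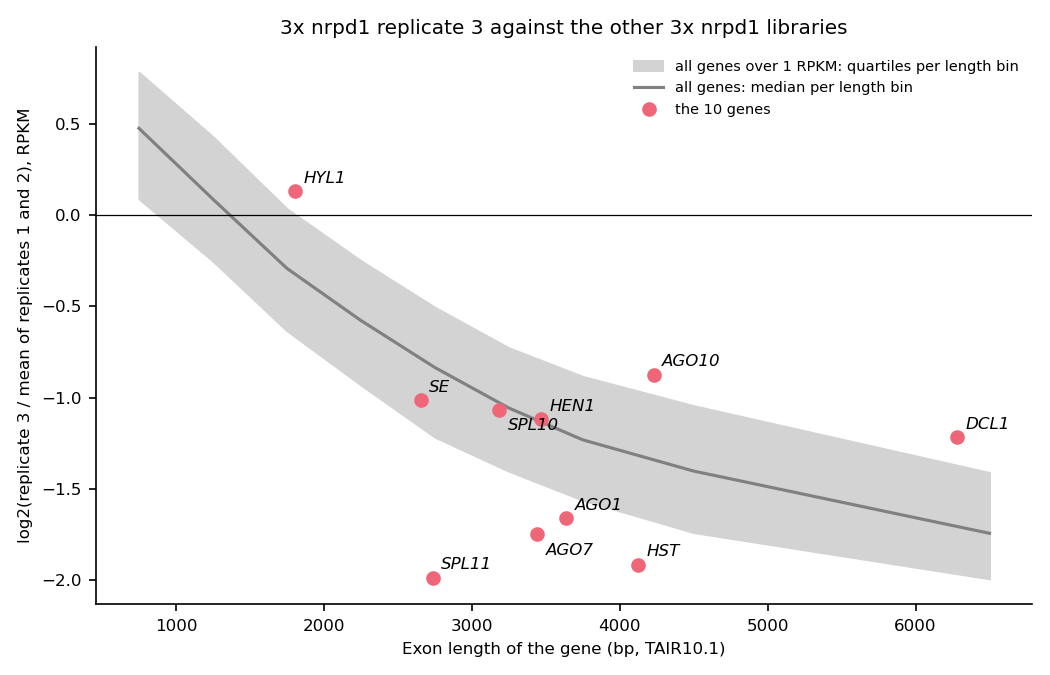
log2 ratio of 3x nrpd1 replicate 3 to the mean of replicates 1 and 2 (y axis) against exon length in bp (x axis), with the 10 genes as labelled points and the quartiles of all genes by length class in grey. The grey median falls with length, SE, HEN1 and SPL10 lie within the quartiles, and HYL1 (0.13) is the only member above 0.

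Between diploid and triploid embryos from nrpd1 pollen donors, which by the labels also differed in age, no member passed the test. In 3x nrpd1 against 2x nrpd1 the members' log2(fold change) ran from −0.55 (SE, limma adjusted p = 0.394) to 0.24 (SPL11), with HYL1 at 0.04 (limma adjusted p = 0.934). The limma test called 0.921% of 17585 genes, 173 (0.984%) passed on adjusted p alone, and 1910 had an unadjusted p under 0.05. As deposited, SE and AGO1 were lower in all 3 libraries of 3x nrpd1 than in any of 2x nrpd1, as 14.8% of all genes were. The mean of SE was 34.6% lower and that of AGO1 27.7% lower. Without 3x nrpd1 replicate 3 SE had −0.32 (limma adjusted p = 0.148), a value near that of the comparison between the wt crosses, HYL1 −0.11 (limma adjusted p = 0.673) and AGO1 −0.0661 (limma adjusted p = 0.723), so that the lower AGO1 mean rests on that library.

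Among diploid embryos the nrpd1 pollen donor made no difference that passed the test. In 2x nrpd1 against 2x wt all 10 log2(fold change) values were at or below 0, from −0.20 (HEN1, limma adjusted p = 0.868) to −0.00 (HYL1). No gene of 17472 was called (0%) and none passed on adjusted p alone (0%) with limma, where the smallest adjusted p was 0.0841 and 984 genes had an unadjusted p under 0.05. HEN1 was the only member whose groups did not overlap, 14.6% lower in the mean, as 6.96% of genes did in that direction.

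Whether the change from diploid to triploid differed between the pollen donors was tested as the interaction over all 12 libraries. A negative value means that the change was more negative with wt pollen. HYL1 was the only member to pass, at −0.77 (SE 0.21, 95% interval −1.23 to −0.31, limma adjusted p = 0.0352), where 4.96% of 18561 genes passed in that direction and 6.73% in the other, and 2.77% and 5.32% were also beyond 1 on the log2 scale. Without 3x nrpd1 replicate 3 it had −0.61 (limma adjusted p = 0.0161). HEN1 had −0.48 (limma adjusted p = 0.252) with that library and −0.73 (limma adjusted p = 0.00741) without it, where 9.6% of 18480 genes passed downwards and 11.7% upwards. The HYL1 call is a narrow one, since the adjusted p was between 0.0528 and 0.0991 in the fits without 2x wt replicate 2 or 3, any one of the 2x nrpd1 libraries, 3x wt replicate 2 or 3, or 3x nrpd1 replicate 1, with the value between −0.71 and −0.79. For the other 8 members, among them DCL1 at 0.56 (limma adjusted p = 0.266), no difference between pollen donors was detectable.

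The wider set of genes that make, turn over and load miRNAs held 27 genes, all tested, HYL1, SE, HEN1, DCL1 and HST among them. In 3x wt against 2x wt 13 fell and 1 rose, where 24.6% and 26.7% of all genes did, 13 did not pass, and the list median was −0.31 against −0.01 for all genes. As deposited 18 fell and none rose, and with quantile normalization 16 fell and 1 rose. The share of all genes that passed on these scales was not worked out, and as deposited the median of all genes was −0.16. SDN1, an exonuclease that degrades mature small RNAs, was the only one down-regulated, from 5.50 ± 0.674 to 1.93 ± 0.519 RPKM (SD, n = 3), at −1.18 (limma adjusted p = 0.0011). Both subunits of the nuclear cap-binding complex fell, CBP20 by 0.50 and CBP80, listed as ABH1, by 0.49 on the log2 scale. The list also held the importin SAD2 (−0.69), the AGO1 cochaperone SQN (−0.59) and the transportin TRN1 (−0.49) among those that fell, and the gene that rose was BRM (0.37), a chromatin remodeller that acts on primary transcripts with SE. HYL1, CBP20 (0.73, limma adjusted p = 0.046) and SDN1 (0.91, limma adjusted p = 0.042) rose in 3x nrpd1 against 3x wt and none fell, the lowest being BRM at −0.95. Without 3x nrpd1 replicate 3, HYL1, HEN1, CBP20, NOT2A (0.44) and SDN1 (0.97) rose and STA1 (−0.44) and BRM (−0.43) fell, where 13.5% of all genes rose and 16.5% fell. No gene of the list passed in 3x nrpd1 against 2x nrpd1 (BRM −0.60 to CBP20 0.09) or in 2x nrpd1 against 2x wt (HEN1 −0.20 to SDN1 0.15), and in the interaction only HYL1 did, with BRM highest at 0.97. HYL1, HEN1, SDN1 and CBP20 passed downwards there and STA1 and BRM upwards without 3x nrpd1 replicate 3.

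Of the 10 ARGONAUTE genes, AGO2 and AGO3 moved where AGO1, AGO7 and AGO10 did not pass. These neighbouring genes encode closely related proteins, and AGO2 is known for its part in antiviral defence. AGO3 had 1.15, 0.493 and 0.886 RPKM in 2x wt, 0.768, 0.718 and 1.504 in 2x nrpd1, 4.27, 3.59 and 6.27 in 3x wt, beside 1.27, 2.04 and 1.16 in 3x nrpd1. Its 3x wt libraries were above all 9 others. AGO3 was up-regulated in 3x wt against 2x wt, at 2.08 (limma adjusted p = 0.00024, SE 0.27), and down-regulated in 3x nrpd1 against 3x wt at −1.37 (limma adjusted p = 0.017), or −1.35 (limma adjusted p = 0.0107) without 3x nrpd1 replicate 3. In the former it met the filter on low values through 3x wt, as the 2x wt libraries would not have met it. Its higher call there is therefore not read as a result. In the latter the 3x nrpd1 libraries were all above 1 RPKM. AGO2 had 14.0, 14.4 and 18.5 RPKM in 2x wt, 11.3, 12.5 and 19.5 in 2x nrpd1, 19.4, 22.1 and 19.7 in 3x wt, beside 8.48, 12.4 and 6.33 in 3x nrpd1. Here 3x wt lay above 2x wt by a small margin, and 3x nrpd1 lay below both. AGO2 rose in 3x wt against 2x wt (0.54, limma adjusted p = 0.0049) and was down-regulated in 3x nrpd1 against 3x wt (−1.16, limma adjusted p = 0.0085, and −1.07, limma adjusted p = 0.00343, without replicate 3).

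AGO9, which acts in the ovule and germ line, and AGO6, of the RNA-directed DNA methylation pathway, fell in 3x wt against 2x wt by 0.91 (limma adjusted p = 0.002) and 0.46 (limma adjusted p = 0.016) on the log2 scale, and AGO9 was down-regulated on the values as deposited and with quantile normalization. AGO9 was the highest of the family in 3x nrpd1 against 3x wt at 0.42, without passing. AGO5 and AT5G21030 did not pass the filter on low values. No ARGONAUTE gene passed in 3x nrpd1 against 2x nrpd1, between AGO2 at −0.53 and AGO3 at 0.51, or in 2x nrpd1 against 2x wt, between AGO6 at −0.14 and AGO4 at 0.06. In the interaction AGO2 (1.07) and AGO3 (1.56) passed and AGO9 was lowest at −0.48.

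**Figure D4:**
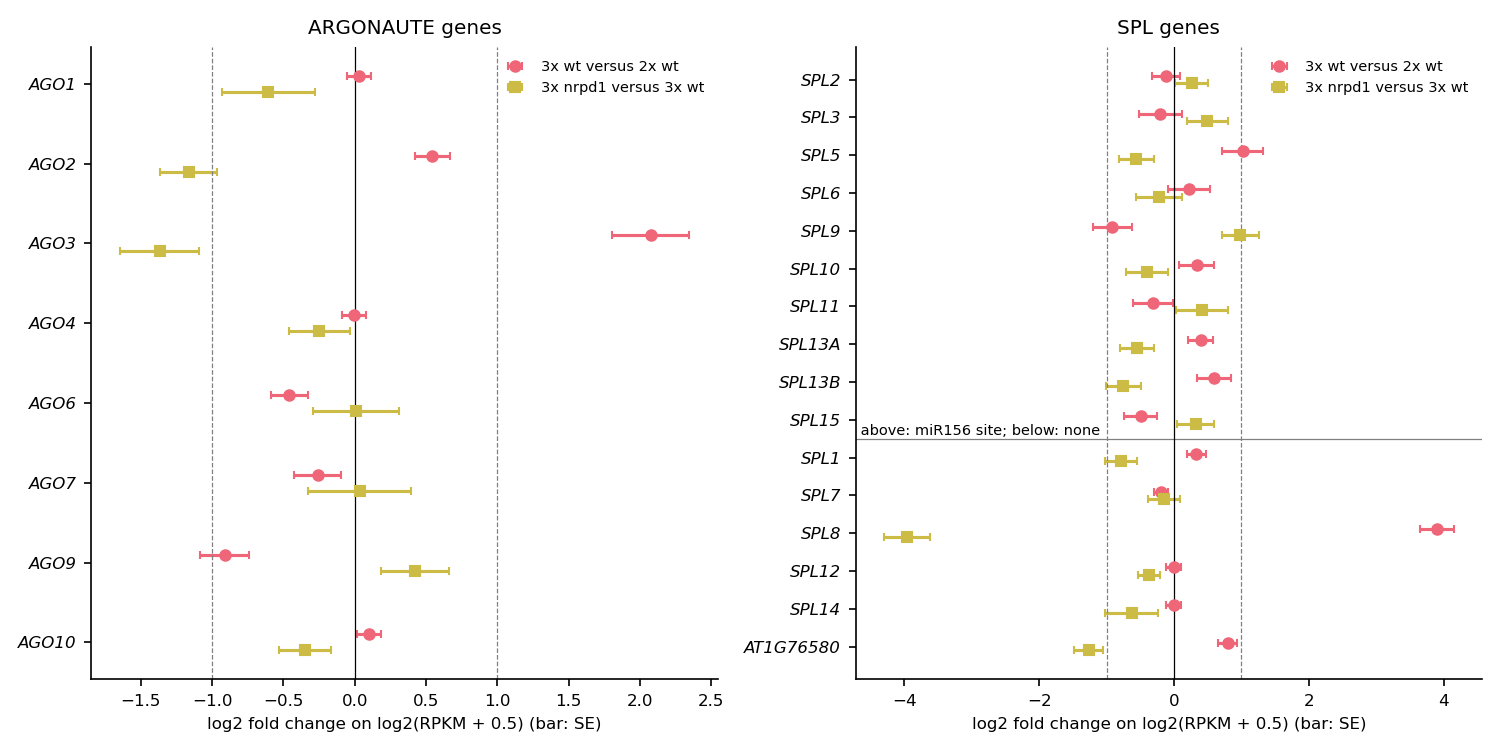
log2(fold change) of the ARGONAUTE and SPL families (y axis, all genes tested) in 3x wt against 2x wt and in 3x nrpd1 against 3x wt, with the SE as a bar. AGO3 (2.08 and −1.37) and SPL8 (3.89 and −3.96) stand farthest from 0, on opposite sides in the 2 comparisons, which share the 3x wt libraries. SPL8 in both comparisons, and AGO3 in 3x wt against 2x wt, met the filter on low values through 3x wt alone, and these calls are not read as results.

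Among the 14 Dicer-like, double-stranded RNA binding and RNA-dependent RNA polymerase genes, all tested, DRB3 was down-regulated in 3x wt against 2x wt. This relative of HYL1 went from 47.7 ± 5.00 to 19.2 ± 2.57 RPKM (SD, n = 3), at −1.14 (limma adjusted p = 5.1e-05). HYL1 and SDE5 (−0.80) fell as well, and SGS3 (0.53), a partner of RDR6 in making trans-acting siRNAs, and DRB2 (0.26) rose. Thus 3 of 14 fell and 2 rose, where 24.6% and 26.7% of all genes did, and the list median was −0.12. As deposited 6 fell and 1 rose, and with quantile normalization 3 fell and 1 rose, the shares of all genes on these scales not being worked out. HYL1 alone rose in 3x nrpd1 against 3x wt, with SGS3 lowest at −0.67, and without 3x nrpd1 replicate 3 DRB3 (0.77) and SDE5 (0.73) rose too and SGS3 fell by 0.50. DRB3 was the other gene of this list to pass in the interaction, at −0.75 (limma adjusted p = 0.0408), where SGS3 was highest at 0.64, and without 3x nrpd1 replicate 3 HYL1, DRB3 and SDE5 passed downwards and SGS3 upwards. None passed in 3x nrpd1 against 2x nrpd1, from DCL3 at −0.60 to RDR1 at 0.32, or in 2x nrpd1 against 2x wt, from DRB3 at −0.14 to DRB4 at 0.19.

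Of 11 SPL genes with a miR156 site, 10 were tested, SPL4 being too low. SPL5 was up-regulated in 3x wt against 2x wt, from 2.60 ± 1.44 to 4.96 ± 1.51 RPKM (SD, n = 3), at 1.02 (limma adjusted p = 0.021), a call that was lost on the values as deposited and with quantile normalization. SPL9 fell, from 1.58 ± 0.553 to 0.507 ± 0.0799 RPKM, at −0.92 (limma adjusted p = 0.025), and was down-regulated with those other scalings. SPL9 met the filter on low values through 2x wt alone, with about 5.93 to 8.3 reads a library in 3x wt. Its lower call is therefore not read as a result. The list median was 0.05, so that genes with the site did not move as one, and SPL10 and SPL11 lay between SPL5 and SPL9. SPL9 rose in 3x nrpd1 against 3x wt by 0.98 (limma adjusted p = 0.049), the lowest being SPL13B at −0.75, and without 3x nrpd1 replicate 3 SPL9 missed the filter and none of the 9 genes tested passed. In this comparison SPL9 met the filter through 3x nrpd1 alone, so its rise is not read as a result either. SPL13A and SPL13B share 83.6% and 100% of their 100-base windows with another gene, and their values are uncertain. None passed in 3x nrpd1 against 2x nrpd1 (SPL13A −0.33 to SPL5 0.47), in 2x nrpd1 against 2x wt (SPL15 −0.31 to SPL13A 0.15) or in the interaction (SPL9 −0.88 to SPL13B 0.91).

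Of the 6 SPL genes without the site, SPL8 had the largest differences in level. SPL8, known for its part in anther development, had 0.553, 0.153 and 0.581 RPKM in 2x wt, 0.354, 0.293 and 0.234 in 2x nrpd1, 10.4, 15.3 and 10.6 in 3x wt, beside 0.473, 0.607 and 0 in 3x nrpd1. It was thus found at more than a trace in 3x wt alone, and it met the filter on low values through that group alone. Its calls are therefore not read as results. The log2(fold change) was 3.89 (limma adjusted p = 5.6e-06) in 3x wt against 2x wt and −3.96 (limma adjusted p = 0.00048) in 3x nrpd1 against 3x wt, or −3.66 (limma adjusted p = 6.6e-05) without replicate 3. Without that library SPL1 fell too, by 0.53 (limma adjusted p = 0.0217). AT1G76580 rose in the former (0.80, limma adjusted p = 0.0016) and was down-regulated in the latter (−1.27, limma adjusted p = 0.0074). SPL7 was the lowest in 3x wt against 2x wt at −0.20 and the highest in 3x nrpd1 against 3x wt at −0.15. None passed in 3x nrpd1 against 2x nrpd1, from SPL14 at −0.49 to SPL12 at −0.22, or in 2x nrpd1 against 2x wt, from SPL12 at −0.18 to SPL1 at −0.02.

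The miRNA genes are annotated as short entries, most of them had few reads, and 20 of the 71 listed were tested in 3x wt against 2x wt. Of these 9 rose and 1 fell, 6 of them up-regulated and 1 down-regulated, where 26.7% of all genes rose, 24.6% fell, 11.1% were up-regulated and 4.85% down-regulated, and the list median was 0.67. As deposited 7 rose and 3 fell, with 6 and 1 beyond the fold threshold, and with quantile normalization 5 and 1 were beyond it. The share of all genes that passed on these scales was not worked out. MIR156A, a source of the miRNA that binds SPL10 and SPL11, had 38.6, 28.1 and 62.0 RPKM in 2x wt, 35.7, 35.9 and 57.2 in 2x nrpd1, 46.7, 72.4 and 58.7 in 3x wt, beside 26.3, 61.0 and 17.0 in 3x nrpd1. Its groups overlapped, with a log2(fold change) of 0.68 that passed the test in 3x wt against 2x wt. MIR156C, which encodes the same miRNA, had 20.3, 12.4 and 21.5 RPKM in 2x wt, 10.0, 11.1 and 33.1 in 2x nrpd1, 33.8, 36.8 and 37.3 in 3x wt, beside 9.05, 27.0 and 16.1 in 3x nrpd1. All 3 libraries of 3x wt were above the other 9, and MIR156C was up-regulated in 3x wt at 1.17, while SPL10 and SPL11 did not pass. In 3x nrpd1 against 3x wt it was down-regulated only without 3x nrpd1 replicate 3, at −1.28 (limma adjusted p = 0.0319).

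MIR162A, the source of the miRNA that targets DCL1, had 3.86, 4.19 and 7.18 RPKM in 2x wt, 5.37, 4.66 and 6.57 in 2x nrpd1, 9.79, 10.7 and 11.0 in 3x wt, beside 6.61, 7.58 and 7.39 in 3x nrpd1. The 3x wt libraries were above the other 9. Read numbers are not given for this gene, since its deposited values did not rest on the annotated exon length of 140 bp. MIR162A was up-regulated in 3x wt against 2x wt at 1.18, and in 3x nrpd1 against 3x wt it fell by 0.64 (limma adjusted p = 0.0157) without 3x nrpd1 replicate 3. MIR168A, the source of the miRNA that targets AGO1, had 12.2, 11.1 and 17.3 RPKM in 2x wt, 10.2, 3.53 and 18.0 in 2x nrpd1, 19.6, 19.0 and 16.8 in 3x wt, beside 1.66, 18.2 and 4.01 in 3x nrpd1. Its libraries overlapped, with a wide spread in both nrpd1 groups, and it rose in 3x wt against 2x wt by 0.62. The targets DCL1 and AGO1 did not pass in that comparison.

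MIR166A and MIR166B, whose miRNA is bound by AGO10, were up-regulated in 3x wt against 2x wt at 1.46 and 2.02. MIR166A had 9.32, 7.34 and 16.4 RPKM in 2x wt and 29.1, 26.7 and 23.6 in 3x wt, with 7.83, 3.78 and 21.5 in 2x nrpd1 and 7.60, 28.8 and 19.4 in 3x nrpd1. MIR166B had 2.83, 2.74 and 2.84 RPKM in 2x wt, 3.17, 0.656 and 4.19 in 2x nrpd1, 11.4, 11.8 and 11.7 in 3x wt, beside 0, 8.45 and 0 in 3x nrpd1. The wt groups did not overlap for either gene, while 3x nrpd1 held both low and high libraries. MIR165A, with the same seed, was at 0 in all 3 libraries of 3x wt and had at most 4.4 reads in 2x wt, and met the filter through 2x wt alone, so no fold is given for its lower call and nothing is read from it. MIR398C (1.40), MIR319B (1.57) and MIR159B (0.50) completed the transcripts that rose. In 3x nrpd1 against 3x wt MIR398C was down-regulated (−1.39), and MIR159A was up-regulated on a few reads (at least 1.15-fold higher, with the floor at 3 reads a library), with MIR166B lowest at −3.24 without passing. MIR159A met the filter in this comparison through 3x nrpd1 alone, with about 1.01 reads a library at most in 3x wt. Its higher call is therefore not read as a result. MIR160B met the filter through 3x wt alone, with about 2.2 reads a library at most there and 0 in 3x nrpd1, so its lower call in this comparison is not read as a result. Without 3x nrpd1 replicate 3, MIR398B (−1.81) and MIR398C (−1.60) were down-regulated there, beside MIR156C. In the interaction MIR398C alone passed, at 1.81 (limma adjusted p = 0.0466), with MIR165A lowest and MIR166B highest at 3.04. None passed in 3x nrpd1 against 2x nrpd1 (MIR319C lowest on a few reads, MIR166A highest at 0.99) or in 2x nrpd1 against 2x wt (MIR167B lowest and MIR159A highest, both on a few reads), but without 3x nrpd1 replicate 3 MIR159A had −1.21 (limma adjusted p = 0.0494) in the former. Poly(A) libraries sample primary transcripts, so these values say nothing of the mature miRNAs.

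**Figure D5:**
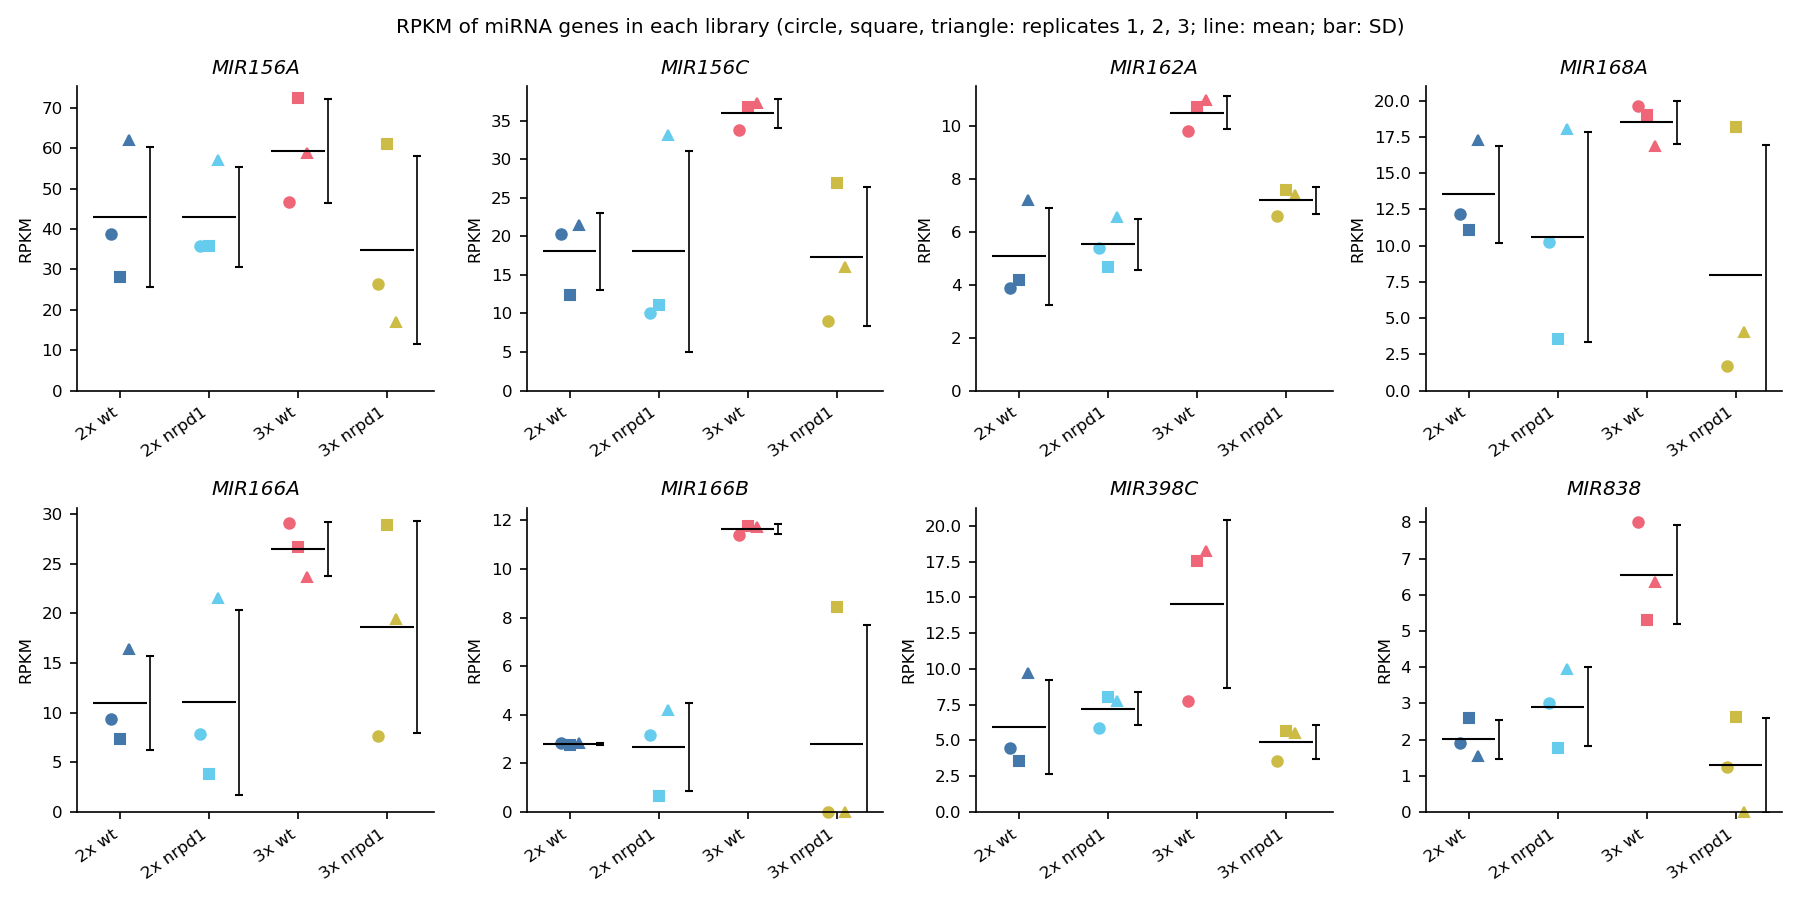
RPKM of 8 miRNA genes in each library (y axis, linear, from 0) by group (x axis), with circles, squares and triangles for replicates 1, 2 and 3, a line for the mean and a bar for the SD (n = 3). For MIR156C, MIR162A, MIR166B and MIR838 the 3 libraries of 3x wt lie above those of the other groups, and both nrpd1 groups spread widely for MIR168A and MIR166A.

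MIR838 (AT1G01046) lies on the same strand within DCL1 (chr1:23121-31227, plus strand), with the mature miRNA in no exon of the 2 annotated DCL1 transcripts, and was added after its values were seen. It had 1.91, 2.60 and 1.53 RPKM in 2x wt, 3.00, 1.78 and 3.96 in 2x nrpd1, 8.01, 5.31 and 6.35 in 3x wt, beside 1.25, 2.61 and 0 in 3x nrpd1. All 3 libraries of 3x wt were above the other 9, on 9 to 13 reads a library against 0 to 7 elsewhere. MIR838 was up-regulated in 3x wt against 2x wt at 1.63 (limma adjusted p = 0.000279, SE 0.22) and down-regulated in 3x nrpd1 against 3x wt at −2.37 (limma adjusted p = 0.0300), or −1.67 (limma adjusted p = 0.00396) without replicate 3. Reads that span this stretch may come from the DCL1 transcript or from one that keeps the intron, and the values cannot be split between them. PPa1, which overlaps DCL1 on the other strand, had −0.17 (limma adjusted p = 0.301) in 3x wt against 2x wt.

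Targets of other conserved miRNAs were mixed. Of 42 genes 40 were tested in 3x wt against 2x wt, of which 8 rose, 7 fell and 25 did not pass, with a median of 0.05. Over all genes 26.7% rose and 24.6% fell. As deposited 5 rose and 13 fell, a scale on which the shares of all genes were not worked out. CUC1 (1.55), a miR164 target that sets organ boundaries, HAM3 (1.32), a miR171 target, and SMZ (1.77), a miR172 target, were up-regulated, SMZ from 0 to 5 reads in 2x wt. SMZ had 9 to 18 reads a library in 3x wt and met the filter on low values through that group alone wherever it was tested. Its calls are therefore not read as results. TCP2 (−0.92, limma adjusted p = 0.00081), a miR319 target, was the lowest, and it rose in 3x nrpd1 against 3x wt (0.94, limma adjusted p = 0.015). SMZ was down-regulated there at −1.49, and with at most 3 reads a library in 3x nrpd1 its level was at least 4.78-fold higher in 3x wt, with the floor set at 3 reads a library. In the interaction TCP2 (−0.88) and CCS (−1.10), a miR398 target, passed, and SMZ was highest at 1.47. None passed in 3x nrpd1 against 2x nrpd1 (TOE2 −0.88 to CSD1 0.98) or in 2x nrpd1 against 2x wt (CCS −0.47 to CUC1 0.41). TOE2 fell in 3x nrpd1 against 2x nrpd1 (−0.64, limma adjusted p = 0.0319) without 3x nrpd1 replicate 3. For 3x nrpd1 against 3x wt 4 genes then rose, ARF8 (0.48), TCP2 (0.94), TCP4 (0.66) and GRF2 (0.54), and SMZ fell, and in the interaction 6 passed, CCS, ARF8, TCP2 and TCP4 downwards and CUC1 and SMZ upwards. Without that library 13.5% of all genes rose and 16.5% fell in 3x nrpd1 against 3x wt. In the interaction 9.6% then passed downwards and 11.7% upwards.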

How the data were processed

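RNA was measured by poly(A) sequencing (paired reads of 125 bp) in 12 libraries, 3 from each of 4 crosses. Per the labels and the study's methods, the authors trimmed reads with Trimmomatic, aligned them with TopHat2 to TAIR10 masked for rRNA, and counted with GFOLD. The deposited values are RPKM per gene; which read total they were divided by, and whether counting used strand, are not given in the sources used here. Reads per library were worked out from the spacing of RPKM values and are approximate. Intervals cover the spread between libraries, which came from separate crosses.

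Libraries were scaled by the median ratio to the geometric mean, genes that reached 1 RPKM in 3 or more of the compared libraries were kept, and log2(RPKM + 0.5) was fitted with limma 3.58.1 in R 4.3.3 (trend, Benjamini-Hochberg adjustment over all genes tested). The 4 pairwise comparisons and the interaction were fitted. Calls needed |log2(fold change)| above 1 and an adjusted p under 0.05. The code was tested on simulated data. Sites were searched without gaps in RefSeq transcripts of TAIR10.1, 1 site a gene.

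All 10 members are named in each comparison. From the other lists, called genes, the highest and lowest genes, and miRNA transcripts with a mean of at least 1 RPKM that passed are named, with at most 4 of each direction; others named were chosen after their values were seen. The members and lists were chosen with earlier results of these data known. Alternatives were pseudocounts of 0.1 and 1, no filter, a mean of at least 5 RPKM, the values as deposited, quantile normalization, a replicate block, 1 fit over 12 libraries, each library left out and, chosen after seeing the data, removal of the exon-length trend (lowess, span 0.3).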

Additional observations from a re-analysis of the deposited data

Results flagged for a closer look

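The results below were picked out because the change from diploid to triploid embryos differed between the pollen donors by the limma interaction test over 12 libraries (adjusted p under 0.05). Values are log2 differences, positive where the change was larger with wt pollen. HYL1 had −0.77 (adjusted p = 0.0352) and its relative DRB3 −0.75 (adjusted p = 0.0408), both with a lower mean in 3x wt than in the other groups. AGO2 had 1.07 (adjusted p = 0.0338) and AGO3 1.56 (adjusted p = 0.0279), and the AGO2 and DRB3 differences did not pass on the values as deposited. Among SPL genes without a miR156 site, SPL8 had 3.85 (adjusted p = 0.000305) and AT1G76580 1.19 (adjusted p = 0.00726). SPL8 met the filter on low values through 3x wt alone, so its difference is not read as a result. The miRNA targets TCP2 and CCS had −0.88 (adjusted p = 0.0379) and −1.10 (adjusted p = 0.0451), while only 1 gene of the target list passed on the values as deposited. MIR398C had 1.81 (adjusted p = 0.0466) and MIR838 2.84 (adjusted p = 0.0236), the latter on at most 13 reads a library. The MIR398C difference did not pass with quantile normalization. All 10 passed as well without 3x nrpd1 replicate 3, HYL1 at −0.61, DRB3 at −0.89, AGO2 at 0.97, AGO3 at 1.54, SPL8 at 3.52, AT1G76580 at 1.07, TCP2 at −0.88, CCS at −1.16, MIR398C at 2.01 and MIR838 at 2.12.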

How the results depend on the processing

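No member was called at the fold threshold under any of 80 alternatives over the 5 comparisons. The number of members with a limma adjusted p under 0.05 was 3 in 3x wt against 2x wt and 3 to 4 with a library left out. In 3x nrpd1 against 3x wt it was 1, and 0 with the replicate block, 2 with all 12 libraries in 1 fit, 2 with the exon-length trend removed and 0 to 2 with a library left out. In the interaction it was 1, and 1 with the replicate block, 2 with the length trend removed and 0 to 2 with a library left out. The replicate numbers did not pair the libraries (correlations of deviations −0.15 to 0.29, not above 0.1 for each number in any comparison); the block took away the HYL1 call in 3x nrpd1 against 3x wt (0.79, adjusted p = 0.0574) and no other call on a member. With the length trend removed HEN1 passed in 3x nrpd1 against 3x wt (0.57) and in the interaction (−0.72), and HST in 3x wt against 2x wt (0.26). DCL1 passed in 3x nrpd1 against 3x wt with all 12 libraries in 1 fit (−0.66), and SE missed the threshold in 3x wt against 2x wt in that fit (−0.31).

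None of the values that changed sign had passed the test. In 3x wt against 2x wt AGO1 turned to −0.13 as deposited and −0.13 with quantile normalization, and AGO10 to −0.0623 and −0.0326. HYL1 in 3x nrpd1 against 2x nrpd1 turned to −0.0888 and −0.00955 under the same settings. With the length trend removed, AGO10 turned to 0.00926 in 3x nrpd1 against 3x wt and to −0.0540 in the interaction, SE to 0.0160 in 2x nrpd1 against 2x wt, and, in 3x nrpd1 against 2x nrpd1, DCL1 to 0.26, HEN1 to 0.0387, HST to 0.0271, AGO7 to 0.0815, AGO10 to 0.17 and SPL10 to 0.20. With single libraries left out the ranges that crossed 0 were AGO1 −0.0143 to 0.0944 in 3x wt against 2x wt, AGO7 −0.20 to 0.46 in 3x nrpd1 against 3x wt and −0.50 to 0.18 in the interaction, and, in 2x nrpd1 against 2x wt, HYL1 −0.0724 to 0.0304, SPL10 −0.13 to 0.0545, SE −0.0638 to 0.0357 and AGO7 −0.12 to 0.0803. In 3x nrpd1 against 2x nrpd1 they were SPL10 −0.21 to 0.13, DCL1 −0.37 to 0.0357, HYL1 −0.11 to 0.18, HEN1 −0.40 to 0.0148, HST −0.57 to 0.19, AGO7 −0.45 to 0.26 and AGO10 −0.32 to 0.00959. Apart from fits with a library left out, 405 member values kept their direction and side of the threshold, 15 changed sign, 4 gained and 2 lost the call. Over the whole table, a mean of at least 5 RPKM took called genes from 1988 higher and 872 lower to 1215 and 498 in 3x wt against 2x wt, from 570 and 1165 to 358 and 664 in 3x nrpd1 against 3x wt, to 90 and 1 in 3x nrpd1 against 2x nrpd1, and from 988 to 514 higher in the interaction. In 3x nrpd1 against 2x nrpd1 the fit over 12 libraries called 330 and 17, and other settings 1 to 14 lower. In 2x nrpd1 against 2x wt no filter, the block and the fit over 12 libraries each called 1. Other causes were not tested. SPL10 and SPL11, at low levels, have wide intervals.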
